A study of Mus musculus with 16 samples.

Results

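Genes of the neutrophil compartment were followed through bulk RNA-seq of MC38 tumors. They comprise 5 genes known from neutrophils (S100a8, S100a9, Csf3r, Cxcr2 and Retnlg) and 4 chemokine ligands of the receptor CXCR2 (Cxcl1, Cxcl2, Cxcl3 and Cxcl5). The genes were taken as a fixed list and matched by symbol, and all 9 were found among the 53465 genes of the count table. MC38 is a mouse colon adenocarcinoma line, labelled as colorectal carcinoma, and 1000000 cells were placed under the skin of the right flank in female C57BL/6 mice aged 6 to 8 weeks. Tumors that had reached 150 to 250 mm3 on day 16 were given 200 µg of a control IgG or of an antibody against the checkpoint receptor PD-1 (aPD-1) on days 16 and 20, and were collected on day 21. The 8 IgG controls carry the mouse numbers 1 to 8, the 6 aPD-1 non-responders 9 to 14, and the 2 aPD-1 responders 15 and 16. Response was assigned by the study from CD8 T cell staining of the same tumors, so the groups differ in T cell content by construction, and the group of responders holds only 2 mice. RNA came from 2 sections of 100 µm of the frozen part of each tumor. In such bulk RNA, fewer cells of a type and less RNA per cell cannot be told apart.

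Neutrophils are short-lived granulocytes that are released from the bone marrow under the growth factor G-CSF, which acts through the receptor encoded by Csf3r. They move toward chemokines that carry a glutamate-leucine-arginine motif before their first cysteines, and CXCR2 is the main receptor of mice for this family. S100a8 and S100a9 encode the subunits of calprotectin, a calcium-binding alarmin stored in abundance in the neutrophil cytosol, and Retnlg encodes a resistin-like protein made in myeloid cells. Tumor cells, fibroblasts, endothelium and macrophages can make Cxcl1, Cxcl2, Cxcl3 and Cxcl5 after stimulation by interleukin-1, interleukin-17 or TNF. Csf3r is also found on monocytes and macrophages, and CXCR2 is not restricted to neutrophils.

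The 4 ligand genes lie close together on chromosome 5 of GRCm38, all on the plus strand. Cxcl5 (ENSMUSG00000029371) spans chr5:90759360-90761624 and Cxcl3 (ENSMUSG00000029379) spans chr5:90786103-90789600. Further along, Cxcl1 (ENSMUSG00000029380) spans chr5:90891241-90893115 and Cxcl2 (ENSMUSG00000058427) spans chr5:90903871-90905938. S100a8 (chr3:90668978-90670035, plus strand) and S100a9 (chr3:90692632-90695721, minus strand) are neighbours on chromosome 3. Csf3r lies at chr4:126024550-126044440, Cxcr2 at chr1:74153989-74161246 and Retnlg at chr16:48872621-48874496, all on the plus strand.

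RefSeq promoter sequences of GRCm38.p6 were at hand for 8 of the 9 members, with no entry for Cxcl5. The 3 ligand promoters are shown because Cxcl2 varied with Cxcl1 and with Cxcl3 among tumors and all 3 share the same letters just before their start sites. Each stretch holds 110 bases of the plus strand, 5′ to 3′, ending before the earliest annotated start (chr5:90891131-90891240 for Cxcl1, chr5:90903761-90903870 for Cxcl2 and chr5:90785991-90786100 for Cxcl3). Capitals mark GGGAATTTCCC, which holds letters of the kind bound by NF-kB, and ATAAAAG, letters of the kind bound by the TATA-binding protein, and the matches do not overlap.
Cxcl1: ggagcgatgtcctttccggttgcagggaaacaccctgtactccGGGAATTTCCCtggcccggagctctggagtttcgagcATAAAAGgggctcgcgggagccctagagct
Cxcl2: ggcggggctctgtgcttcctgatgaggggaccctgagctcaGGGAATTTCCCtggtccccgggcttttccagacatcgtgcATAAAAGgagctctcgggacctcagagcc
Cxcl3: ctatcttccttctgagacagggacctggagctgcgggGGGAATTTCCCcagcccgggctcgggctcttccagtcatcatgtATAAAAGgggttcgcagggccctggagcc

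GGGAATTTCCC was the longest run of letters common to the 3 stretches, at 11 bases. It was found in 14 of all 32851 RefSeq promoter windows of 300 bases searched on both strands (0.0426%). ATAAAAG was found in 5.42% of the windows, and among the 8 member promoters in those of Cxcl1, Cxcl2, Cxcl3 and S100a8. Counted from the RefSeq start, the first base of the shared run lies at -71 in Cxcl1, -97 in Cxcl2 and -73 in Cxcl3. Both motifs were picked after the sequences were seen, and a match of letters is not a measured binding site.

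The tumors held 26603449 to 39948866 counts each, so that 1 CPM, a count per 1000000 counts of the library, stood for 26.3 to 39.5 counts. The rRNA entry CT010467.1 took 20.4% of the counts in IgG control 3 and at most 0.489% in the others. IgG control 1 (7.60%), non-responder 9 (6.00%) and non-responder 14 (5.73%) had high shares of mitochondrial RNA, against 2.52% as the lowest share. All CPM values were scaled to library sizes corrected by the TMM method, which adjusts for differences in RNA composition.

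The neutrophil genes were scarce in these tumors, apart from Csf3r. S100a8, which is among the most abundant transcripts of a neutrophil, stayed at or below 1.14 CPM in all 14 tumors that were not responders. Ly6g, the surface antigen that defines mouse neutrophils, had 0 counts in all 16 tumors. Per kilobase of exon, the order of mean levels in IgG controls began with Cxcl1 at 4.84 ± 3.24 CPM per kilobase (SD, n = 8), followed by Csf3r at 1.77 ± 0.77 and Cxcl2 at 1.02 ± 0.66. S100a9 at 0.679 ± 0.625, S100a8 at 0.399 ± 0.388 and Cxcl5 at 0.351 ± 0.432 came next, and Retnlg at 0.106 ± 0.152, Cxcl3 at 0.0658 ± 0.0560 and Cxcr2 at 0.0448 ± 0.0296 came last. Each neighbouring pair in this order differed by less than the larger SD of the pair. In the responders S100a9 had the highest mean, 5.57 ± 5.07 CPM per kilobase (n = 2), and Cxcr2 reached 1.55 ± 0.06.

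**Figure D1:**
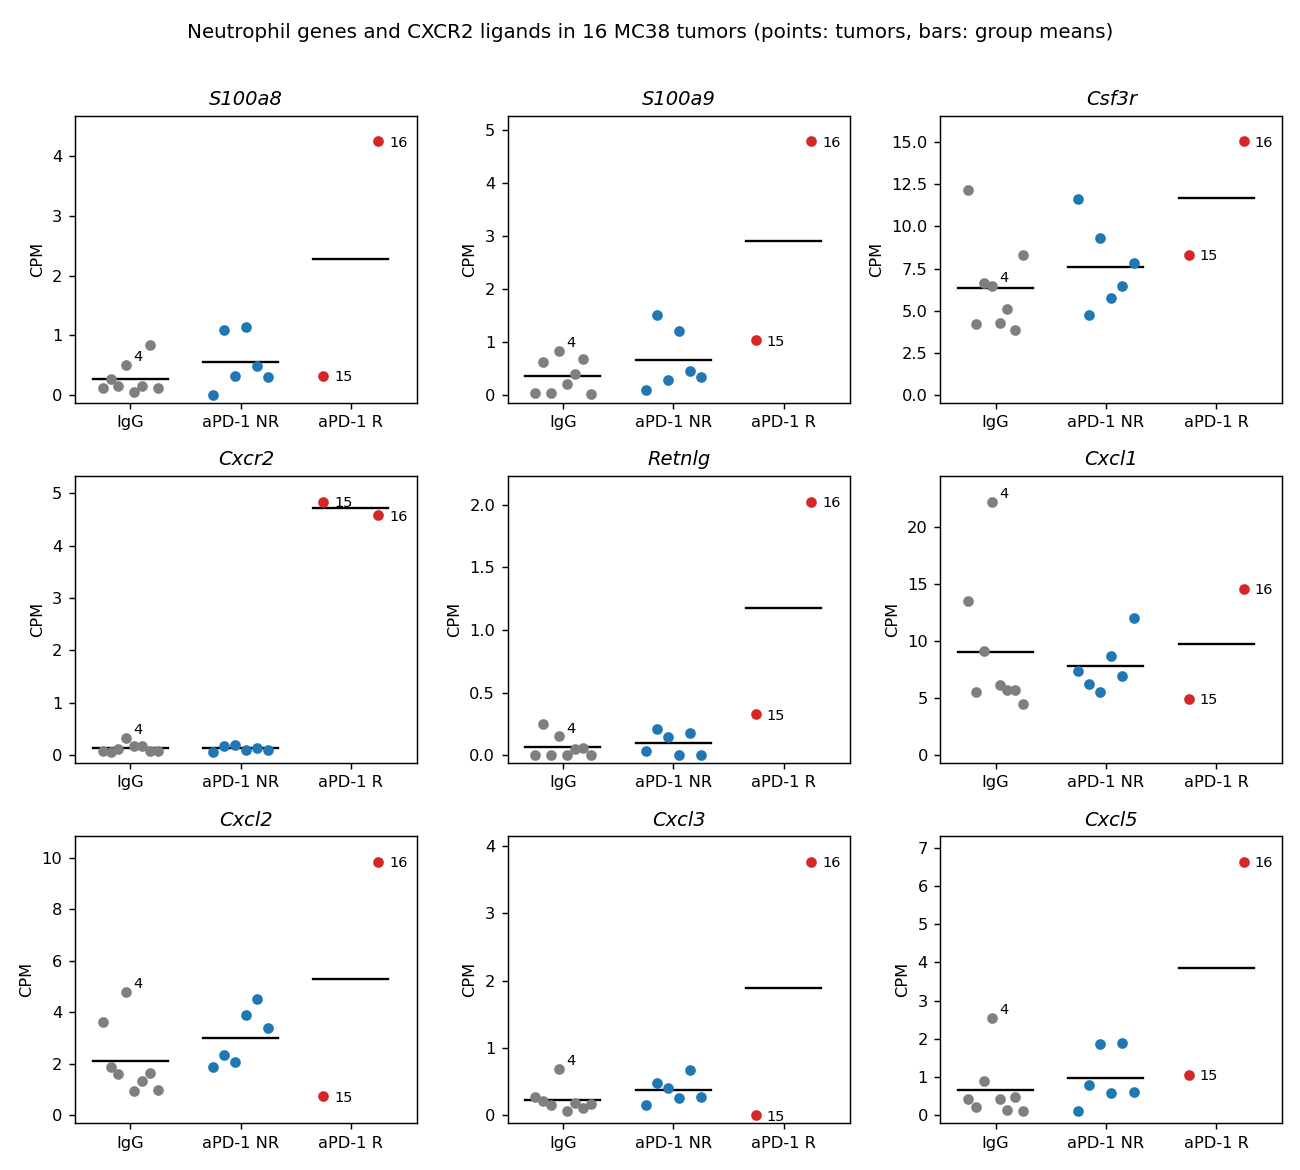
Expression of the 9 genes in each of the 16 tumors, in CPM on linear axes that differ between panels, with 8 IgG controls, 6 aPD-1 non-responders (NR) and 2 aPD-1 responders (R). Points are tumors and bars are group means, and responders 15 and 16 and IgG control 4 carry their numbers. Both responders lie above all other tumors for Cxcr2 (4.84 and 4.58 CPM) and Retnlg, while responder 16 alone lies above all of them for 6 further genes.

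Against non-responders, 2 of the 9 genes were called higher in responders, Cxcr2 and Retnlg, and none was called lower. A gene was called when edgeR's quasi-likelihood test gave an adjusted p below 0.05 and the fold change exceeded 2 in either direction, a log2 value of 1. Of the 18251 genes tested, 12.5% were called higher and 0.663% lower. The count filter of this fit asked for expression in only as many tumors as the smallest group, the 2 responders. Cxcr2 and Retnlg, with at most 11 and 9 counts in any other tumor, passed it through the responders, where they are high. The share over all genes also holds genes that entered in this way. With no filter on low counts 2 members were still called. Against IgG controls, 6 of the 9 were called higher: S100a8, S100a9, Cxcr2, Retnlg, Cxcl3 and Cxcl5. Here the share of all genes called higher was 14.3%, and 0.641% were called lower. The responders and the non-responders did not overlap for 2 members, against 21.5% of all genes with responders higher, and the responders and the IgG controls did not overlap for 3 members, against 19.3%. The median log2 fold change of the 9 genes was 2.02 against non-responders and 3.01 against IgG controls, where the medians over all tested genes were 0.02 and -0.02. These 2 comparisons share the responders, and neither is independent of the other.

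Cxcr2 was the member that differed most. Its level ranged from 0.0547 to 0.330 CPM in IgG controls (median 0.0983) and from 0.0610 to 0.202 CPM in non-responders (median 0.115), which are 2 to 11 counts per tumor. Responder 15 reached 4.84 CPM (164 counts) and responder 16 reached 4.58 CPM (163 counts). The groups did not overlap, and the lower responder stood 13.9 times above the highest of the 14 other tumors. The log2 fold change was 5.15 ± 0.47 (SE) against non-responders (edgeR, adjusted p = 7.96e-07) and 5.06 ± 0.42 against IgG controls (edgeR, adjusted p = 1.60e-07). Leaving out either responder kept it between 5.04 and 5.14 against non-responders.

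Retnlg had 0 to 9 counts in IgG controls (0 to 0.246 CPM, median 0.0259) and 0 to 7 counts in non-responders (0 to 0.213 CPM, median 0.0872). Responder 15 had 0.325 CPM (11 counts) and responder 16 had 2.02 CPM (72 counts). Both stood above the other 14 tumors, responder 15 by a few counts only. The log2 fold change was 3.58 ± 1.08 against non-responders (edgeR, adjusted p = 0.0273) and 4.09 ± 1.02 against IgG controls (edgeR, adjusted p = 0.00708). Against non-responders the call was lost without responder 15 (4.29, adjusted p = 0.0640 by edgeR) and without responder 16 (1.69, adjusted p = 0.549 by edgeR), and against IgG controls without responder 16 (2.21, adjusted p = 0.358 by edgeR).

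The calprotectin genes S100a8 and S100a9 were carried by responder 16. S100a8 ranged from 0.0573 to 0.843 CPM in IgG controls (median 0.153) and from 0 to 1.14 CPM in non-responders (median 0.402), with 0.325 CPM in responder 15 and 4.24 CPM in responder 16. Responder 15 thus lay within the range of both other groups, and responder 16 lay 3.73 times above the highest of the 14 others. The log2 fold change was 3.02 ± 0.92 against IgG controls (edgeR, adjusted p = 0.0241) and 2.02 ± 0.98 against non-responders (edgeR, adjusted p = 0.173). With responder 15 alone the values were 0.16 and -0.83.

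S100a9 ranged from 0.0277 to 0.839 CPM in IgG controls (median 0.295) and from 0.0915 to 1.52 CPM in non-responders (median 0.400). Responder 15 had 1.03 CPM and responder 16 had 4.78 CPM. Both lay above all IgG controls, while responder 15 lay below 2 of the 6 non-responders. Its log2 fold change was 3.01 ± 0.89 against IgG controls (edgeR, adjusted p = 0.0204) and 2.15 ± 0.95 against non-responders (edgeR, adjusted p = 0.134), and with responder 15 alone the call against IgG controls was lost (1.46, adjusted p = 0.474 by edgeR).

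Csf3r, the G-CSF receptor gene, was the only neutrophil member that every tumor expressed well. It ranged from 3.88 to 12.2 CPM in IgG controls (median 5.78) and from 4.74 to 11.7 CPM in non-responders (median 7.15), with 8.33 CPM in responder 15 and 15.04 CPM in responder 16. Responder 15 lay inside the range of the controls, and responder 16 was the highest tumor. The log2 fold change was 0.88 ± 0.37 against IgG controls (edgeR, adjusted p = 0.108) and 0.62 ± 0.40 against non-responders (edgeR, adjusted p = 0.322), neither of them called. The highest values outside the responders came from IgG control 1 (12.2 CPM) and non-responder 9 (11.7 CPM), which are 2 of the 3 tumors with high mitochondrial RNA. Without those 3 tumors Csf3r was called against IgG controls (1.02, adjusted p = 0.0127 by edgeR). Leaving out IgG control 1 alone, the only 1 of the 3 in this comparison, also gave a call (1.02, adjusted p = 0.0221 by edgeR).

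Cxcl1, a ligand first known as KC, was the most expressed ligand and did not separate the groups. It ranged from 4.46 to 22.2 CPM in IgG controls (median 5.96) and from 5.53 to 12.02 CPM in non-responders (median 7.16), with 4.96 CPM in responder 15 and 14.6 CPM in responder 16. The tumor with the highest level was IgG control 4, and responder 15 was lower than all but 1 of the other 14. Its log2 fold change was 0.33 ± 0.53 against non-responders (edgeR, adjusted p = 0.740) and 0.11 ± 0.52 against IgG controls (edgeR, adjusted p = 0.909).

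Cxcl2, also named MIP-2, and its paralog Cxcl3 took opposite ends in the responders. For Cxcl2 the IgG controls ranged from 0.946 to 4.80 CPM (median 1.63) and the non-responders from 1.89 to 4.50 CPM (median 2.86). Responder 15 had 0.738 CPM, the lowest of all 16 tumors, and responder 16 had 9.84 CPM, the highest. The log2 fold change of 0.81 ± 0.68 against non-responders (edgeR, adjusted p = 0.470) is an average of a tumor at each extreme: it was -2.07 ± 0.88 with responder 15 alone and 1.64 ± 0.63 with responder 16 alone, neither called. Against IgG controls it was 1.34 ± 0.64 (edgeR, adjusted p = 0.153), and with responder 16 alone it was called (2.15, adjusted p = 0.0351 by edgeR).

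Cxcl3 ranged from 0.0573 to 0.689 CPM in IgG controls (median 0.174) and from 0.153 to 0.668 CPM in non-responders (median 0.337). Responder 15 had 0 counts and responder 16 had 3.77 CPM (134 counts), 5.46 times the highest of the 14 other tumors. A count of 0 allows up to 3 counts, or 0.0886 CPM in responder 15, which is at least 4.20-fold lower than the mean of the non-responders and at least 2.597-fold lower than that of the IgG controls. This limit covers counting error only. With both responders the log2 fold change was 3.02 ± 0.88 against IgG controls (edgeR, adjusted p = 0.0187) and 2.32 ± 0.94 against non-responders (edgeR, adjusted p = 0.0968). With responder 16 alone Cxcl3 was called higher in both comparisons (3.26 against non-responders, adjusted p = 0.0103 by edgeR). With responder 15 alone it was called lower (adjusted p = 0.0287 by edgeR against non-responders and 0.0444 against IgG controls), where the fitted size depends on how a count of 0 is handled.

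Cxcl5, known as LIX, ranged from 0.111 to 2.55 CPM in IgG controls (median 0.424) and from 0.122 to 1.90 CPM in non-responders (median 0.700). Responder 15, at 1.06 CPM, lay within both ranges, and responder 16, at 6.63 CPM, lay above them. The log2 fold change was 2.56 ± 0.88 against IgG controls (edgeR, adjusted p = 0.0444) and 1.97 ± 0.94 against non-responders (edgeR, adjusted p = 0.166). The call against IgG controls did not hold with responder 15 alone (0.65, adjusted p = 0.781 by edgeR) or with responder 16 alone (3.27, adjusted p = 0.0629 by edgeR). RSEM divided reads that match several genes among them, and because Cxcl1, Cxcl2 and Cxcl3 are close paralogs, small amounts of any of these may be misassigned.

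**Figure D2:**
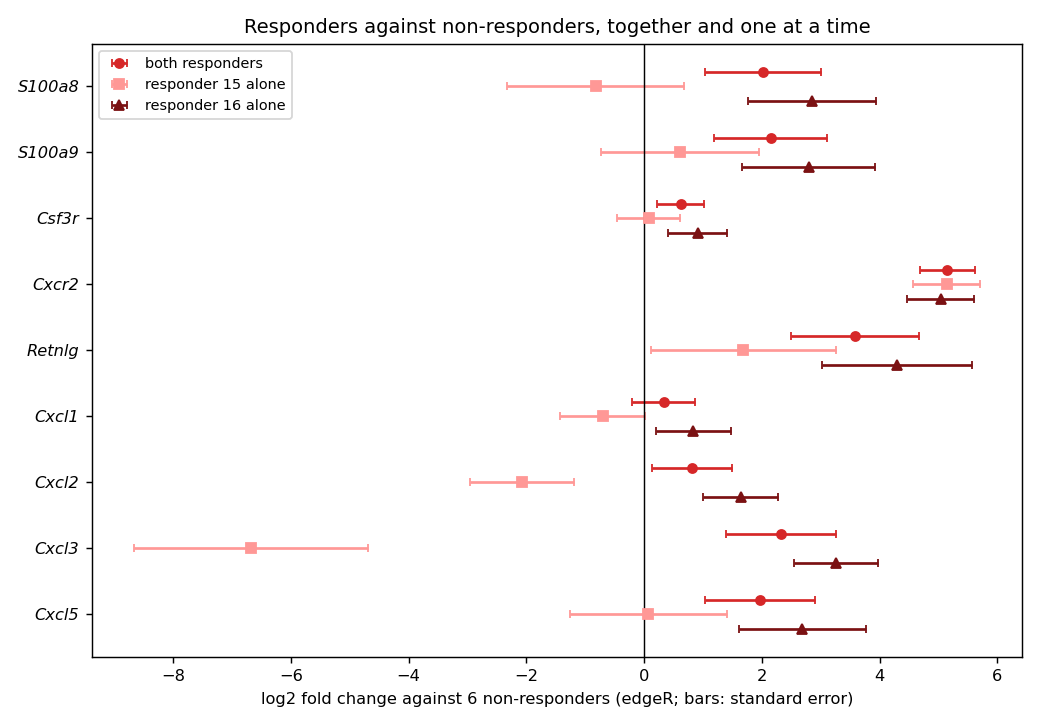
Log2 fold change of the 9 genes in responders against the 6 non-responders by edgeR, with both responders and with each alone; bars show the standard error. Cxcr2 stays near 5.15 whichever responder is used, whereas S100a8, Cxcl1, Cxcl2 and Cxcl3 take opposite signs with responder 15 alone and responder 16 alone; the size for Cxcl3 with responder 15 alone rests on a count of 0.

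The 2 responders were unlike each other in these genes. Responder 16 lay above all 14 tumors that were not responders for 8 of the 9 members, the exception being Cxcl1, while 19.6% of all tested genes did so. Responder 15 did so for 2 members, against 25.8% of all tested genes. Responder 16 had at least 2 times the CPM of responder 15 for 7 of the 9 members, namely S100a8, S100a9, Retnlg and the 4 ligands, compared with 4.9% of all tested genes. The ratio of responder 16 to responder 15 was 13.1 for S100a8, 13.3 for Cxcl2, 6.24 for Cxcl5, 6.23 for Retnlg, 4.62 for S100a9, 2.95 for Cxcl1 and 1.81 for Csf3r. Only for Cxcr2 was the ratio below 1, at 0.946. Without responder 16 the members called against IgG controls fell from 6 to 2, which were Cxcr2, higher, and Cxcl3, lower. With 1 tumor on each side these ratios have no replicate check.

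Treatment without a responder state left the 9 genes without a call. Between non-responders and IgG controls 0 of 9 were called (0.0% of the 18251 genes), and edgeR's adjusted p was at least 0.987 for each. Across all genes 694 passed an unadjusted p of 0.05 in that comparison, and DESeq2 called 4 genes, 0 of them members. The log2 fold changes lay between -0.22 for Cxcl1 and 1.00 ± 0.74 for S100a8, and the groups overlapped for all 9.

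For all 8 aPD-1 tumors against the 8 IgG controls, which is the randomised comparison, 0 of the 6 members tested were called (0.0% of 15775 genes). Cxcr2, Retnlg and Cxcl3 did not pass the count filter of that fit. S100a8 had a log2 fold change of 1.83 ± 0.77 (edgeR, adjusted p = 0.370) and S100a9 of 1.77 ± 0.75 (edgeR, adjusted p = 0.377), both with overlapping groups. Without responder 16 they were 0.91 and 0.98. Cxcl5 had 1.39 ± 0.72 (edgeR, adjusted p = 0.492), and Cxcl1 had -0.12 ± 0.33 (edgeR, adjusted p = 0.933). Across all genes 1800 passed an unadjusted p of 0.05, and DESeq2 called 59 genes, 0 of them members.

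A wider list of 24 other neutrophil genes was read for the same contrast, of which 18 passed the count filter. Against non-responders 5 were called higher and 1 lower, and against IgG controls 11 were called higher and none lower. Over all tested genes the shares were 12.5% higher and 0.663% lower against non-responders, and 14.3% and 0.641% against IgG controls. Granule genes were among those with the largest values: Ltf, which encodes the iron-binding lactoferrin, had a log2 fold change of 5.70 ± 1.05 against non-responders (edgeR, adjusted p = 0.000837), and Lcn2, a siderophore-binding lipocalin, of 3.59 ± 0.92 (edgeR, adjusted p = 0.00996). Wfdc21 (4.62 ± 0.93) and the proteinase 3 gene Prtn3 (3.46 ± 0.72) were also called, as was Hdc, which encodes the histamine-forming enzyme (1.05 ± 0.31). Trem1, an activating receptor of myeloid cells, was called lower (-1.10 ± 0.37, adjusted p = 0.0426 by edgeR), at 4.81 and 7.48 CPM in the responders and 5.39 to 17.1 CPM in the others. That call was lost in 5 of the 8 fits that left out a tumor, namely without responder 15 (-0.89, adjusted p = 0.398 by edgeR), responder 16 (adjusted p = 0.0522) or non-responder 11, 12 or 13. The call of Hdc was lost without responder 15 (0.91, adjusted p = 0.277 by edgeR), responder 16 (adjusted p = 0.0884) or non-responder 14 (0.93), and its log2 fold change was 0.80 without the 3 tumors with high mitochondrial RNA, below the size required.

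Of these genes, Ltf, Lcn2, Wfdc21 and Prtn3 were highest in responder 15. Ltf had 19.0 CPM in responder 15 and 3.96 CPM in responder 16, against at most 1.83 CPM elsewhere. Prtn3 had 8.15 and 0.731 CPM against at most 0.745 CPM elsewhere, so responder 16 lay within the range of the other tumors. Wfdc21 had 14.1 and 2.39 CPM against at most 1.07 CPM. Lcn2, at 10.7 and 3.09 CPM, was ordered in the same way, opposite to S100a8, S100a9 and Retnlg. Without responder 15, Ltf, Lcn2, Wfdc21 and Prtn3 were each no longer called against non-responders or IgG controls. Ltf, Lcn2 and Wfdc21 are known to be made by epithelia as well as by neutrophils.

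Over the 18 tested genes of this list, 7 had at least 2 times the CPM in responder 16 that they had in responder 15, as did 4.9% of all tested genes. In the other direction, 5 had at least 2 times the CPM in responder 15, a count without a share over all genes beside it. Among the 7, Mmp8, the neutrophil collagenase of the tertiary granules, had 1.06 CPM in responder 15 and 5.54 CPM in responder 16 with 0.191 to 2.94 CPM in the other tumors. It was called against IgG controls (2.16 ± 0.69, adjusted p = 0.0305 by edgeR). The cathepsin G gene Ctsg, of the primary granules, had 0.118 and 1.46 CPM and was called there too (3.37 ± 0.91, adjusted p = 0.0121 by edgeR). With responder 15 alone neither kept its call, and that of Mmp8 was also lost without IgG control 5 (adjusted p = 0.0502 by edgeR). The gelatinase gene Mmp9 (62.0 and 77.8 CPM, 39.3 to 113 CPM elsewhere) and the decoy receptor gene Il1r2 (5.46 and 4.92 CPM, 2.07 to 7.25 CPM elsewhere) overlapped between groups and were not called. Mpo, Elane and Camp, the genes of further granule proteins, had at most 1, 4 and 5 counts in any tumor.

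Of 21 other genes around CXCR2, 16 passed the count filter, with 5 called higher against non-responders and 8 against IgG controls, and none called lower. The shares of all tested genes called higher were 12.5% and 14.3% in these comparisons. The ligand gene Cxcl15, known from lung epithelium, had 0 to 0.164 CPM outside the responders, 4.87 CPM in responder 15 and 1.01 CPM in responder 16. It was called in both comparisons (5.66 ± 0.80 against IgG controls, adjusted p = 5.01e-05 by edgeR). With at most 6 counts in any other tumor, Cxcl15 passed the count filter only through the responders, where it is high. The 5 and 8 calls include it. Ppbp, the platelet ligand of CXCR2, stayed at or below 0.415 CPM in all tumors and was not called. Cxcr1, the other receptor of this family, had at most 11 counts in a tumor, and Csf3, which encodes G-CSF itself, at most 6, so neither was tested. Il17a had 0 counts in all 16 tumors.

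Genes of the vessel wall and the stroma in this list were called higher in responders. Ackr1, which encodes an endothelial carrier of chemokines, had 8.74 CPM in responder 15 and 2.33 CPM in responder 16, against at most 1.115 CPM elsewhere (3.64 ± 0.97 against non-responders, adjusted p = 0.0130 by edgeR). The adhesion molecule gene Icam1, a partner of leukocyte integrins, had 54.9 and 40.4 CPM against 8.24 to 19.3 CPM elsewhere (1.71 ± 0.24, adjusted p = 7.04e-05 by edgeR). Cxcl12, which retains neutrophils in the marrow through CXCR4, had 221 and 82.9 CPM against 1.22 to 32.5 CPM (3.43 ± 0.86, adjusted p = 0.00911 by edgeR). Icam1 kept its call without either responder, while Ackr1 and Cxcl12 lost theirs without responder 15. The selectin genes Selp and Sele were called against IgG controls (3.13 ± 0.98 and 2.95 ± 0.93), at adjusted p of 0.0290 and 0.0288 by edgeR. Sele had at most 15 counts in any tumor outside the responders and passed the count filter only with their counts. Selp lost that call without responder 15 (1.59, adjusted p = 0.635 by edgeR), and Sele without responder 15 (adjusted p = 0.368) or responder 16 (adjusted p = 0.0669).

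Among the inducers of these ligands, Il1a, Il1b, Il6 and Tnf were not called in either comparison with both responders. Il6 still lay above all other tumors in both responders, at 1.60 and 1.86 CPM against 0.187 to 1.43 CPM. Its log2 fold change was 1.60 ± 0.62 against non-responders (edgeR, adjusted p = 0.0852) and 1.53 ± 0.59 against IgG controls (edgeR, adjusted p = 0.0764). Il1b had 12.3 CPM in responder 15 and 44.3 CPM in responder 16, with 6.84 to 37.6 CPM in the other tumors (0.22 ± 0.51 against non-responders, adjusted p = 0.827 by edgeR). Il1a had 1.77 and 7.31 CPM, with 1.61 to 5.34 CPM elsewhere (0.27 ± 0.41, adjusted p = 0.719 by edgeR). Against IgG controls Il1a was called with responder 16 alone (1.66, adjusted p = 0.00636 by edgeR) and without IgG control 2 (1.13, adjusted p = 0.0467 by edgeR). For Il1b, Il1a and Il6 responder 16 was the highest tumor, as it was for Cxcl2, Cxcl3 and Cxcl5, though for Il6 responder 15 was close to it. Tnf was instead highest in responder 15, at 8.86 CPM. Responder 16 had 7.17 CPM of Tnf, within the 2.82 to 8.36 CPM of the tumors that were not responders. The interleukin-1 receptor gene Il1r1, in contrast, was called higher (2.595 ± 0.41, adjusted p = 0.000232 by edgeR) and was higher in responder 15 (59.6 CPM) than in responder 16 (28.1 CPM).

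**Figure D3:**
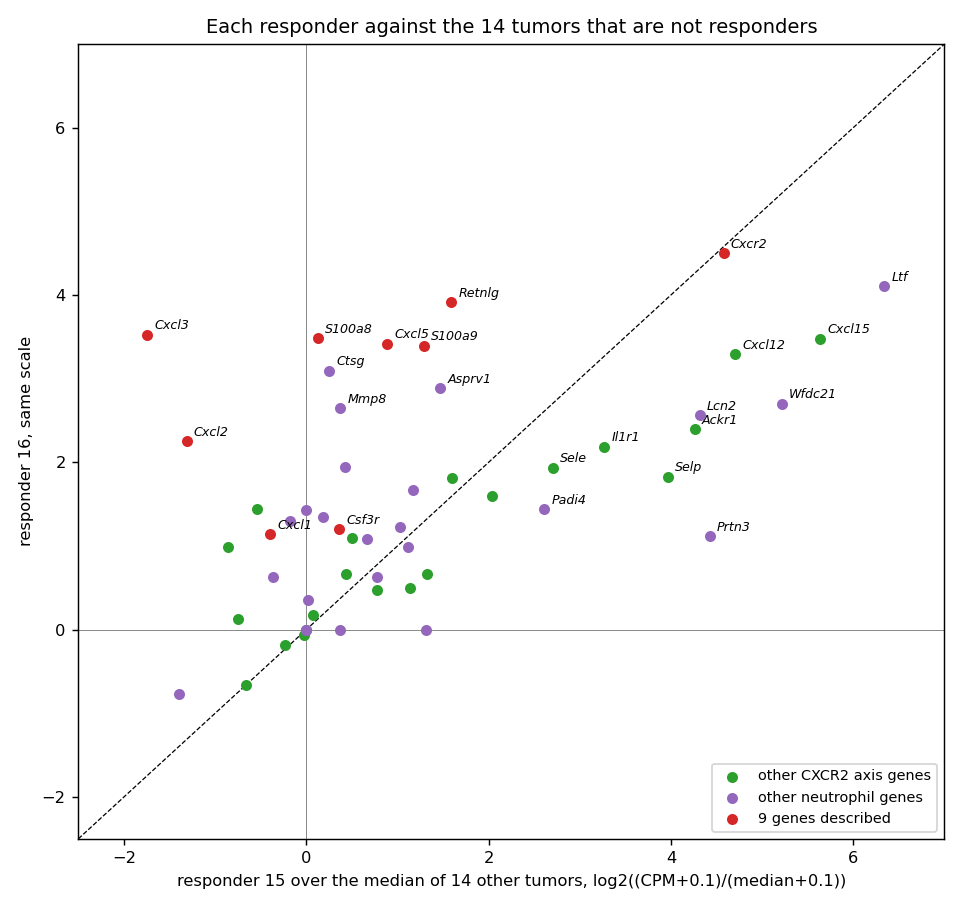
Level of each gene in responder 15 (x axis) and responder 16 (y axis) over the median of the 14 tumors that were not responders, as log2((CPM + 0.1)/(median + 0.1)), for the 9 genes described, 24 other neutrophil genes and 21 other genes around CXCR2. On the dashed line the responders are equal: Cxcr2 lies on it, S100a8, S100a9, Retnlg and the ligands lie above it, and Ltf, Lcn2, Wfdc21, Prtn3, Cxcl15, Cxcl12 and Ackr1 lie below it.

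Markers of several other cell types were higher in the responders, and those of some others were not. The summed level of 6 B cell markers was 1069 CPM in responder 15 and 271 CPM in responder 16, against at most 6.98 CPM in each other tumor, and all 6 were called in both comparisons. The 6 T cell markers summed to 199 and 191 CPM against at most 29.3 CPM, with all 6 called, and 4 adipocyte markers to 1124 and 206 CPM against at most 77.2 CPM, with all 4 called. The 10 monocyte and macrophage markers summed to 2386 and 2655 CPM, above the range of 1039 to 2258 CPM in the other tumors. Against non-responders 2 of the 10 were called, where 12.5% of all tested genes were called higher. Lyz2 made up 1292 and 1572 CPM of these sums. Fcgr1 in responder 15 (44.5 CPM) was the lowest of all tumors. Cd14 in responder 15 (25.3 CPM) lay below the IgG control mean (30.6 CPM), while responder 16 was highest (57.4 CPM). Eosinophil markers summed to 1.51 and 3.06 CPM, against at most 0.668 CPM. Endothelial markers reached 314 and 176 CPM, against at most 155 CPM. Keratinocyte and skeletal muscle markers had median log2 fold changes of -0.97 and -1.76 against non-responders, and none was called. Of the red blood cell markers none was called either (median 1.33). Of the mast cell, platelet and fibroblast markers 1 each was called against non-responders. Of 7 markers of colon carcinoma cells, 5 were tested and 4 called, with sums of 116 and 50.5 CPM in the responders but only 4.61 to 12.2 CPM in the others, and the contrast was carried by Krt8, Krt18, Krt19 and Epcam. These 4 had means of 0.462 to 0.614 CPM in IgG controls and 0.346 to 0.446 CPM in non-responders, whereas Cdh1 was at 3.75 CPM or more in every tumor. Cdx2 and Vil1 were at or below 0.283 CPM in all tumors, responders included. Their part in the values of Cxcr2 and the other members was not tested.

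Among the 16 tumors, the members formed pairs that varied together, measured as correlations of log2 CPM with 100000 permutations over 36 pairs. S100a8 and S100a9 had r = 0.863 (permutation p = 3e-05, adjusted p = 0.00054) and rho = 0.891 (permutation p = 1e-05, the smallest that 100000 permutations can give, adjusted p = 0.00036). Without the 2 tumors farthest from the median r was 0.804, and it was 0.724 within IgG controls and 0.952 within non-responders. Cxcl2 and Cxcl3 had r = 0.890 (permutation p = 1e-05, adjusted p = 0.00036). Their rho was 0.888 (permutation p = 3e-05, adjusted p = 0.00054). Without the 2 responders, which were the farthest tumors, r was 0.785. For this pair r was 0.860 within IgG controls but only 0.401 within non-responders.

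Cxcl1 and Cxcl2 had r = 0.766 (permutation p = 0.00048, adjusted p = 0.00432) and rho = 0.741 (permutation p = 0.00133, adjusted p = 0.0120), with r = 0.677 without the 2 farthest tumors. Within groups r was 0.898 in IgG controls and 0.468 in non-responders. Over all pairs 16 passed an adjusted p of 0.05 by Pearson's r and 5 by Spearman's rho. Of the 6 pairs between ligands 5 passed by r and 2 by rho, and of the 20 pairs of a ligand with a neutrophil gene 6 passed by r and 2 by rho. All pairs share library size and RNA quality of the same tumors, and responder 16 is the extreme tumor for 7 members.

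Cxcr2 split the tumors into responders and the rest, so its relations were read in the other 14 tumors only. There Cxcr2 and Cxcl5 had r = 0.626, with IgG control 4 highest for both. The highest r of Csf3r with another member over these 14 tumors was 0.32, with Cxcl1. Its r with S100a9 was -0.63 and with S100a8 -0.49, and within the 6 non-responders -0.97 and -0.92. Non-responder 9 had the highest Csf3r of its group with 0 counts of S100a8, and non-responder 10 the lowest Csf3r with the highest S100a9. These values are given as a description and were not tested.

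**Figure D4:**
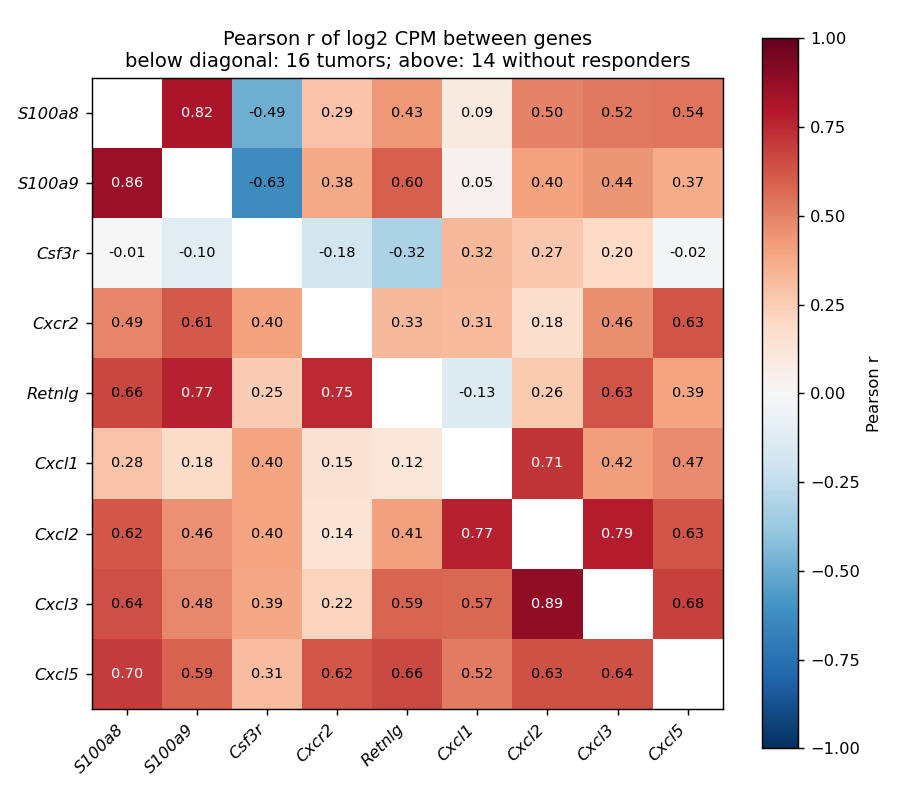
Pearson's r of log2 CPM for each pair of the 9 genes, over all 16 tumors below the diagonal and over the 14 tumors without responders above it, with red for positive and blue for negative values. S100a8 with S100a9 and Cxcl2 with Cxcl3 stay at 0.82 and 0.79 without responders, while Csf3r with S100a9 is at -0.63.

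Genes of like pattern were ranked by r with 4 members over 13943 genes whose mean reached 1 CPM, as a description over the 16 tumors. For S100a8 the nearest were Fbxl5 (r = 0.908), 1700071M16Rik (0.878) and Clec4e (0.816), a lectin receptor gene of myeloid cells with 25.2 CPM in responder 16 and 4.35 to 15.5 CPM outside the responders. For Cxcr2 they were Ighv5-9 (0.964), Fcrl1 (0.962) and Trp53inp1 (0.960). Ighv5-9 is an antibody variable segment and Fcrl1 a B cell receptor-like gene. Without the responders these values dropped to 0.410, 0.586 and 0.359. Ighv5-9 and Fcrl1 reached the mean of 1 CPM only through the responders, with at most 0.0599 and 0.430 CPM outside them. Because Cxcr2 was also scarce outside the responders, its ranking mainly reads that split and cannot show a likeness beyond it. For Cxcl1 the nearest was Sh3rf3 (0.831) and for Cxcl5 Glipr2 (0.867), which stayed at 0.791 and 0.796 without the responders.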

How the data were processed

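Bulk RNA-seq of 16 tumors was analysed, each from another mouse. The authors aligned stranded poly(A) reads of 150 bases to GRCm38 with STAR 2.6 and deposited expected counts per gene from RSEM 1.3.0 on Ensembl 91, without normalization. Whether strand entered the counting is not given in the sources used here. GENCODE mouse release 21 gave symbols and positions for 53274 of 53465 identifiers. The 92 entries that name no gene held at most 0.000549% of the counts of a tumor and were left out. Estimated counts were rounded and fitted with edgeR 4.0.16 (R 4.3.3) by robust quasi-likelihood, after TMM scaling and its count filter, with the steps tested on simulated data. Responder comparisons used 1 fit of 3 groups, and the treatment comparison a fit of 2. Benjamini-Hochberg adjustment covered all genes tested. A lone responder was assumed to vary like the other groups. Correlations used log2 CPM with a prior count of 2. Alternatives included DESeq2 1.42.0, other size factors and filters, fits of 2 groups, and leaving out tumors. Named genes were the 9 members, 12 fixed companion genes, and the 6 called companion genes of largest fold change per list. The members and lists were chosen with earlier results of these data known.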

Additional observations from a re-analysis of the deposited data

Results flagged for a closer look

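IgG control 4 stood apart from the 7 other IgG controls for 3 members, by a gap to the nearest tumor that was large for the range of the group. Its Cxcr2 level was 0.330 CPM, with 0.181 CPM as the next highest. Cxcl3 was at 0.689 CPM, with 0.266 CPM next. Cxcl5 was at 2.55 CPM, with 0.898 CPM next. It also had the highest Cxcl1 and Cxcl2 of the IgG controls, at 22.2 and 4.80 CPM. Of 18 groups examined in this way 3 were marked, all by this tumor. The 3 marks are not independent: over the 14 tumors without responders r was 0.685 for Cxcl3 with Cxcl5 and 0.626 for Cxcr2 with Cxcl5. The check marks about 1 in 20 by chance only for independent, normally distributed values. That rate does not apply to CPM of few counts, such as 11 counts of Cxcr2 here against 7 in the next tumor. The summed macrophage markers of this tumor were 1378 CPM, its B cell markers 6.98 CPM, the highest outside the responders, and its T cell markers 6.98 CPM, the lowest of all tumors. Their part in the ligand levels was not tested.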

How the results depend on the processing

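The limits are those of 2 responders that differ from each other. Leaving out tumors moved the members called against IgG controls between 2 (without responder 16) and 6, and gave 2 against non-responders in each fit, though not the same genes: without responder 15 or 16, Retnlg lost its call and Cxcl3 gained one, higher (3.26) and lower (-6.68) respectively. Requiring at least 10 counts in at least 8 tumors kept 6 members and gave 0 calls against non-responders and 3 against IgG controls. DESeq2 called 1 member against non-responders, since Retnlg missed the threshold (3.63, adjusted p = 0.0837). Cxcr2 was called in every fit of the responders that tested it, and DESeq2 added Il1a against IgG controls (1.04, adjusted p = 0.0459) and missed Sele there (3.03, adjusted p = 0.0558). With no filter on low counts Selp against IgG (3.07, adjusted p = 0.0584) and Hdc against non-responders (0.97, adjusted p = 0.0574) were not called, nor was Hdc without mitochondrial genes (0.98). Selp was called against non-responders when only the 2 groups were fitted (2.98, adjusted p = 0.0295) and without non-responder 11 (adjusted p = 0.0466). Trem1 was called lower against IgG controls without IgG control 1 (-1.06, adjusted p = 0.0100). No paired analysis was possible because the mouse numbers run from 1 to 16 and do not repeat between groups. Counts of at most 11 for Cxcr2 and Retnlg outside the responders limit comparisons of the other groups.

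Against IgG controls, Cxcl3 missed the threshold when only the 2 groups were fitted (3.03, adjusted p = 0.0546), as did Cxcl5 (2.57, adjusted p = 0.0677), which also missed it without a filter on low counts (2.48, adjusted p = 0.0760) and in 9 of 10 fits that left out a tumor. With Spearman's rho 5 pairs passed in place of 16, and within non-responders r of Cxcl1 with Cxcl3 was -0.44.

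Signs turned as follows when tumors were left out in turn, as ranges of the log2 fold change. Cxcl1 ran from -0.29 to 0.21 for all aPD-1 against IgG, from -0.38 to 0.12 for non-responders against IgG, from -0.93 to 0.61 for responders against IgG and from -0.70 to 0.84 for responders against non-responders. Responders against IgG gave -1.56 to 2.15 for Cxcl2, -6.00 to 3.94 for Cxcl3, -0.36 to 1.66 for Il1a, -0.86 to 0.97 for Il1b and -0.13 to 0.27 for Mmp9. Responders against non-responders gave -2.07 to 1.64 for Cxcl2, -6.68 to 3.26 for Cxcl3, -0.83 to 2.85 for S100a8, -0.92 to 2.65 for Ctsg, -1.13 to 0.89 for Il1a, -1.03 to 0.80 for Il1b, -0.12 to 0.17 for Il1r2, -0.41 to 1.95 for Mmp8 and -0.24 to 0.12 for Mmp9. Cxcr2 in non-responders against IgG gave -0.25 to 0.23.

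Without IgG control 1 and non-responders 9 and 14 together, the sign turned for Cxcr2 in non-responders against IgG (0.067), for Il1b (-0.14) and Il1r2 (-0.33) against non-responders and for Mmp9 against IgG (-0.0021). Il1r2 against non-responders was -0.043 with no filter on low counts, -0.026 without mitochondrial genes and -0.026 without the rRNA entry, and Mmp9 was 0.0070 with the stricter filter. None of these was called.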
